A study of Saccharomyces cerevisiae with 10 samples.

Results

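Yeast cells lacking the RNA helicase Sub2 were compared with wild-type cells on 5 single-colour Affymetrix expression arrays, 2 of the deletion strain sub2∆ and 3 of W303-1A (WT), chosen by strain label from the 10 arrays of the series. Both strains are haploid Saccharomyces cerevisiae of mating type MATa that share the mutant alleles ura3-1, trp1-1, leu2-3,112, his3-11,15, can1-100 and ade2-1, and the deletion strain, DLY23, carries HIS3 in place of SUB2. Cultures were in mid-log growth in liquid YPAD, a rich medium with added adenine, and total RNA was labelled as biotinylated cRNA. The arrays of a strain are called biological replicates, but the labels name 1 strain per genotype and do not say whether separate clones or cultures grown side by side were used, so the p-values rest on the spread among these 5 arrays. Of 5716 probe sets on the array, 4801 had 2 or more values in each strain and were tested. With 1 probe set per gene, the brightest, they gave 4594 tested genes of the 5449 named on the array.

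Sub2 belongs to TREX, a complex that joins the THO subunits Tho2, Hpr1, Mft1 and Thp2 with export factors and travels with RNA polymerase II. It loads the adaptor Yra1 on nascent mRNA, which hands the transcript to the export receptor Mex67. Sub2 also acts in splicing, where it helps to displace the branch point proteins Msl5 and Mud2 so that the U2 snRNP can bind. Budding yeast strains without THO or Sub2 are known for poor growth, nuclear retention of mRNA and transcription-linked recombination.

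The arrays had median intensities of 1346 and 1374 in sub2∆ and of 1475 to 1541 in WT. The log2 difference between the 2 sub2∆ arrays had an SD of 0.21, and that between WT arrays 0.30 to 0.48. Between 38 and 414 cells were empty on a WT array, and 479 and 811 on the sub2∆ arrays. The deleted gene was read first as a check of the labels. SUB2 read 11974, 12692 and 12448 on the WT arrays and 104 and 54.6 on the sub2∆ arrays (log2 change -7.07 ± 0.23, SE, with a limma adjusted p of 0.000218). Tests were made with limma on log2(intensity + 16), and a gene is said to have risen or fallen where the Benjamini-Hochberg adjusted p over all tested probe sets was under 0.05. Of the tested probe sets 742 rose (15.5%) and 1512 fell (31.5%), and of the genes 714 rose (15.5%) and 1443 fell (31.4%). The median log2 change of all tested genes was -0.16, and levels of gene lists are read against it. The number of calls rested on both mutant arrays, with 1098 probe sets called without sub2∆ replicate 1 and 1024 without sub2∆ replicate 2, against 2254 with both. In these fits 334 and 373 probe sets rose and 764 and 651 fell, and counts of gene lists without an array are read against that.

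The change of a gene depended on its chromosome. Genes of chromosomes II and X stood higher in sub2∆ as a body, with a median log2 change of 0.44 over 265 tested genes of chromosome II and of 0.57 over 204 of chromosome X. On each of the other 14 chromosomes the median lay between -0.41 (chromosome V) and -0.16 (chromosome VI). On chromosome II 47.9% of the tested genes rose and 6.04% fell, and on chromosome X 57.4% rose and 6.86% fell. Elsewhere between 7.50% and 13.2% of a chromosome's genes rose and between 26.6% and 45.9% fell. Each array showed the same. The median against the WT mean was 0.46 and 0.42 on the sub2∆ arrays for chromosome II and 0.58 and 0.56 for chromosome X, and no WT array left the range from -0.06 to 0.04 on any chromosome.

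**Figure D1:**
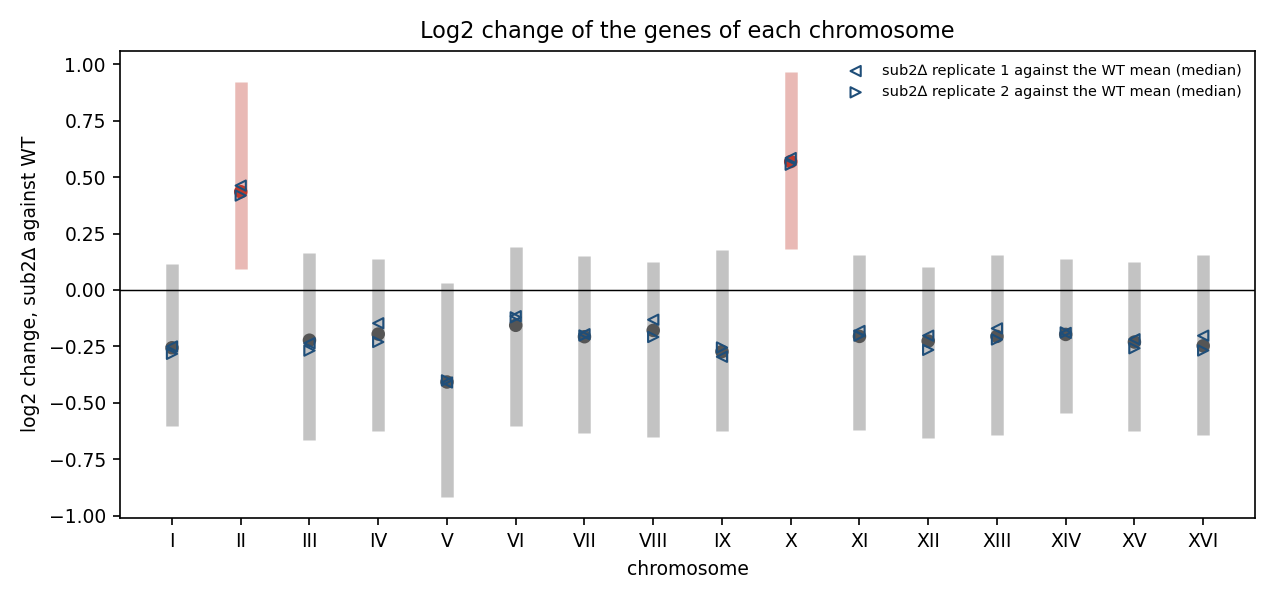
Log2 change of sub2∆ against WT for the tested genes of each chromosome: filled points are medians, thick bars give the interquartile range, and open triangles give the median of each sub2∆ array against the WT mean. Chromosomes II (0.44) and X (0.57) lie above 0 and the other 14 lie between -0.41 and -0.16, on both sub2∆ arrays.

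The shift ran along the whole of both chromosomes. When the tested genes of each were cut into 10 equal stretches in gene order, all 10 medians of chromosome II lay between 0.15 and 0.81 and all 10 of chromosome X between 0.34 and 0.84. Of the 140 stretches of the other chromosomes 5 had a median above 0, and the highest was 0.29. Genes with a value on all 5 arrays, 255 of chromosome II, 195 of chromosome X and 3925 elsewhere, gave a difference between strains of 0.68 for chromosome II and 0.79 for chromosome X relative to the other chromosomes. On the linear scale these are ratios of 1.60 and 1.73. In 3 equal classes of genes, dim, middle and bright, the median of chromosome II lay 0.67, 0.85 and 0.58 above that of the other chromosomes, and the median of chromosome X 0.81, 0.80 and 0.76 above. The choice of these chromosomes came from the same values, so no test is given.

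**Figure D2:**
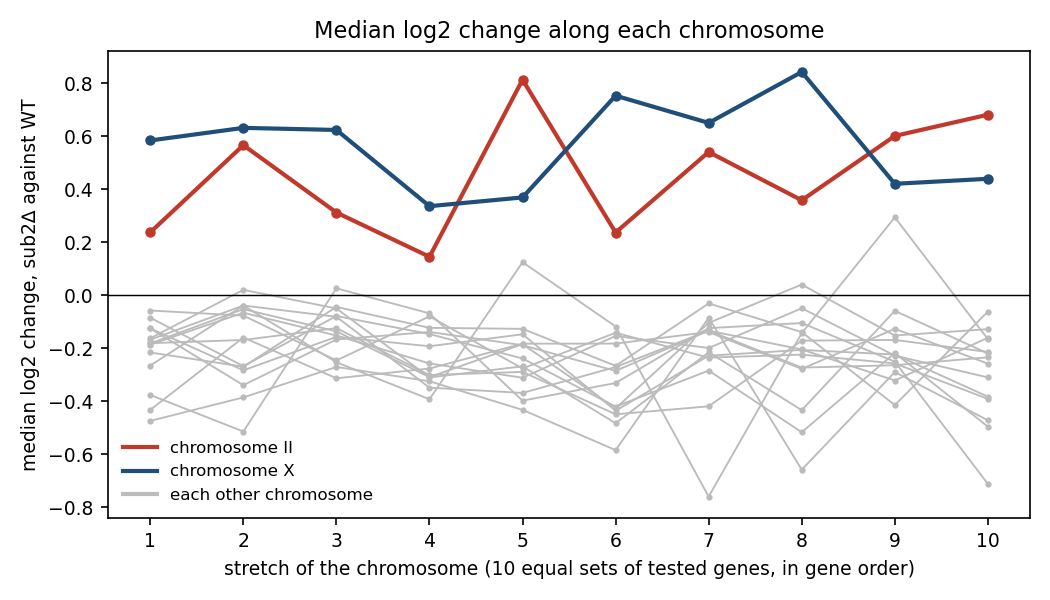
Median log2 change of sub2∆ against WT in 10 stretches of each chromosome, each holding an equal number of its tested genes in gene order. The lines of chromosomes II (0.15 to 0.81) and X (0.34 to 0.84) stay above 0 over their whole length, and the grey lines of the other 14 chromosomes lie mostly below 0.

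Empty cells followed the same chromosomes. Of the named genes 31.5% on chromosome II and 35.4% on chromosome X could not be tested, against 9.22% to 19.7% on the others. The gap was present among genes of middling WT intensity, where 37.6% of the genes of chromosomes II and X and 8.11% of the rest were untested, and was smaller among the brightest genes (11.6% and 5.74%). The medians above therefore cover the filled part of these chromosomes. DNA was not measured in these samples, and the part of chromosome copy number in the shift was not tested. Gene groups that hold genes of chromosomes II and X are given below with and without them. Outside them 4125 genes were tested, 470 rose (11.4%), 1413 fell (34.3%) and the median log2 change was -0.22. When each array was instead centred on the genes of the other 14 chromosomes, an adjustment chosen after seeing the data, 1156 probe sets rose (24.1%) and 965 fell (20.1%). Counts of gene lists after centring are read against these shares.

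The genes given next are the 2 largest called changes each way on chromosomes II and X, so their size follows from the choice. On chromosome X CHM7, which encodes a nuclear envelope protein related to the ESCRT-III membrane remodelling machinery, read 339, 427 and 385 in WT and 5562 and 5330 in sub2∆. This 13.7-fold rise (limma adjusted p = 0.000218) left a wide gap between the groups. TDA4, a gene of the same chromosome with little-known function, read 818 to 1125 in WT and 5459 and 5982 in sub2∆, a 5.80-fold rise (limma adjusted p = 0.000869). In the other direction BNA1 and PRY1, both on chromosome X, fell, BNA1 11.0-fold (on 2 WT arrays) and PRY1 with a log2 change of -2.22. On chromosome II MAL32, a maltase gene whose probe set can bind near-identical copies, read 378 and 240 on the 2 filled WT arrays and 1467 and 2096 in sub2∆. BRN1, a condensin subunit of the same chromosome, read 11.8 and 4.61 on 2 WT arrays, below the offset added before taking logs, and 99.1 and 178 in sub2∆, so no fold is given. The strongest falls of chromosome II were those of YBL112C (log2 change -1.66) and ZTA1 (-1.50, on 2 WT arrays).

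Among the genes of TREX, THO2 and MFT1 moved in opposite directions. THO2, the largest THO subunit, read 2483, 2556 and 2363 in WT and 1257 and 1116 in sub2∆, a 2.07-fold fall (limma adjusted p = 0.00164). MFT1 read 845, 905 and 809 in WT and 1469 and 1677 in sub2∆, a 1.83-fold rise (limma adjusted p = 0.00296). The groups did not overlap for either gene. HPR1 and THP2, which encode the remaining THO subunits, had log2 differences of -0.03 ± 0.12 and 0.02 ± 0.10 (SE, limma adjusted p = 0.846 and 0.906), and their groups overlapped.

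YRA1, the adaptor that Sub2 loads, read 7001 to 8411 in WT and 11922 and 11372 in sub2∆ (log2 change 0.61, limma adjusted p = 0.00974). TEX1, a TREX component, stood at 681 to 825 in WT and at 549 and 523 in sub2∆ (log2 change -0.45, limma adjusted p = 0.0264). These calls were less firm than those of THO2 and MFT1. The adjusted p of YRA1 was 0.0816 without sub2∆ replicate 1 and 0.0694 without sub2∆ replicate 2, and that of TEX1 was 0.119, 0.164 and 0.0672 without sub2∆ replicate 1, sub2∆ replicate 2 and WT replicate 3. Of the 9 genes of the list 2 rose and 4 fell, the deleted gene SUB2 being 1 of the 4, and none lies on chromosome II or X. These are 22.2% and 44.4% of the list, against 15.5% and 31.4% of all genes. After centring on the other 14 chromosomes 2 rose and 2 fell.

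**Figure D3:**
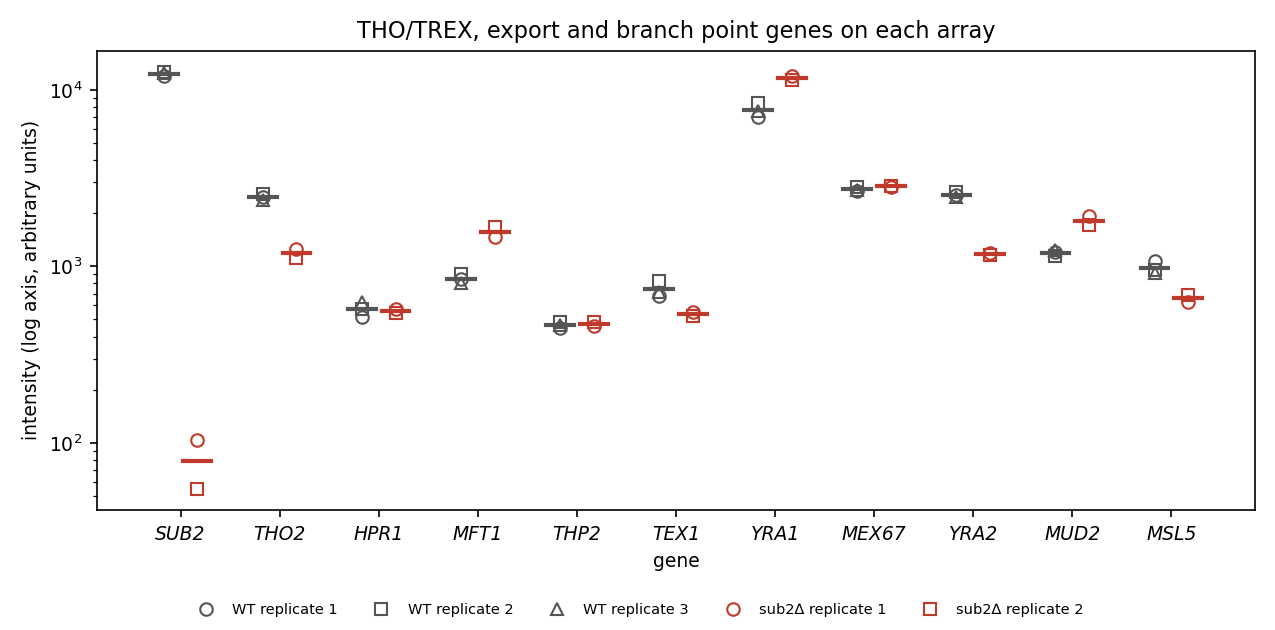
Intensity (log axis) of THO/TREX, export and branch point genes on each of the 3 WT arrays (grey) and 2 sub2∆ arrays (red), with horizontal lines at the strain means. SUB2 is 104 and 54.6 in sub2∆ against 11974 to 12692 in WT, THO2 and YRA2 are lower, MFT1, YRA1 and MUD2 are higher, and HPR1, THP2 and MEX67 overlap or nearly so.

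Further along the export path the receptor gene MEX67 read 2675, 2823 and 2707 in WT and 2832 and 2848 in sub2∆, a log2 difference of 0.05 (limma adjusted p = 0.645). YRA2, which encodes a relative of Yra1, read 2472 to 2632 in WT and 1194 and 1157 in sub2∆, a 2.15-fold fall (limma adjusted p = 0.00125). GLE1, the activator of the helicase that releases mRNA at the pore, fell 1.79-fold (limma adjusted p = 0.00369). CDC31, a centrin shared by the spindle pole body and the pore-bound TREX-2 complex, read 1691 to 1720 in WT and 2951 and 2933 in sub2∆. Of 21 tested export genes 4 rose and 6 fell, with a median of -0.15, and 3 rose and 6 fell of the 19 outside chromosomes II and X. These are 19.0% and 28.6% of the list, near the 15.5% and 31.4% of all genes. Centring on the other 14 chromosomes turned this balance to 9 higher and 4 lower of 21, where 24.1% of all probe sets rose and 20.1% fell. Of 27 nuclear pore genes 5 rose and 6 fell (18.5% and 22.2%), and outside chromosomes II and X 2 and 6 of 24, where 11.4% and 34.3% of all genes rose and fell. With any 1 array left out 1 to 7 of the export genes rose and 2 to 7 fell, and 0 to 5 pore genes rose and 1 to 9 fell, the fewest without a sub2∆ array. POM33, a membrane protein of the pore, read 5360 to 8565 in WT and 2761 and 2453 in sub2∆, but its adjusted p was 0.0694 without sub2∆ replicate 2. In the list of nuclear envelope quality control and ESCRT genes 3 of 17 rose and 1 fell. These are 17.6% and 5.88%, against 15.5% and 31.4% of all genes. The 3 that rose were CHM7 and, of other chromosomes, VPS20 (2.21-fold) and VTA1 (2.30-fold). Outside chromosomes II and X 2 rose and 1 fell of 16 (12.5% and 6.25%, against 11.4% and 34.3% of all genes there).

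The branch point genes that Sub2 is known to act on moved apart. MUD2 read 1199, 1141 and 1231 in WT and 1921 and 1714 in sub2∆ (log2 change 0.60, limma adjusted p = 0.00696). MSL5 read 912 to 1073 in WT and 628 and 688 in sub2∆ (log2 change -0.56, limma adjusted p = 0.0129). Neither gene's groups overlapped. Without sub2∆ replicate 1 the adjusted p was 0.0701 for MUD2 and 0.105 for MSL5, and that of MSL5 was 0.0695 without sub2∆ replicate 2 and 0.0670 after centring on the other 14 chromosomes.

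Larger changes were those of other snRNP genes. YHC1, which encodes the U1-C protein of the U1 snRNP, read 617 to 738 in WT and 1691 and 1607 in sub2∆, a 2.43-fold rise, and NAM8, a U1 protein that assists weak 5′ splice sites, read 1035 to 1230 and 441 and 431, a 2.52-fold fall. Of 26 genes of branch point recognition and the U1 and U2 snRNPs 6 rose and 5 fell, the deleted gene SUB2 being 1 of the 5. These are 23.1% and 19.2%, against 15.5% and 31.4% of all genes. Outside chromosomes II and X 5 rose and 5 fell of 24 (20.8% each, against 11.4% and 34.3% of all genes there). Among 44 genes of later steps 14 rose and 8 fell, and 9 and 8 of 38 outside (23.7% and 21.1%, against 11.4% and 34.3% of all genes there). The rises in the earlier and later lists numbered 1 and 8 without sub2∆ replicate 1 and 3 and 5 without sub2∆ replicate 2, and the falls 2 and 2 in both fits. There LSM5, of the Sm-like ring on U6 snRNA and on decaying mRNA, fell 2.76-fold while LSM8 of chromosome X rose 2.63-fold and LSM4 rose with a log2 change of 0.81.

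Genes with introns, the substrates of that machinery, did not stand apart as a list. Of 97 tested genes with an intron that do not encode ribosomal proteins 17 rose and 26 fell with a median of -0.17, and outside chromosomes II and X 10 rose and 26 fell of 86 (11.6% and 30.2%), near the 11.4% and 34.3% of all genes there. Leaving out sub2∆ replicate 1 or sub2∆ replicate 2 left 4 and 5 rises and 16 and 14 falls among the 97. The list came from general knowledge. As a check, the genomic span of 62.3% of its genes on the array is not a multiple of 3 bases, against 0.768% of other genes, ribosomal protein genes left out. Within it CIN2, a tubulin folding factor, read 1160 to 1413 in WT and 340 and 246 in sub2∆, a 4.12-fold fall (limma adjusted p = 0.00130). TDA5 fell 2.25-fold, and LSM2, on chromosome II, rose with a log2 change of 0.91.

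Ribosomal protein genes, many of which hold introns in yeast, were mostly uncalled. Of 117 tested cytosolic ribosomal protein genes 4 rose and 12 fell, with a median of -0.05. All 4 that rose lie on chromosome II or X, RPS14B among them (1.78-fold), so that outside these chromosomes 0 of 102 rose in the limma fit (2 at an unadjusted p under 0.05) and 12 fell. The 12 falls are 10.3% of the list, against 31.4% of all genes, and became 4 and 3 without sub2∆ replicate 1 and sub2∆ replicate 2 and 7 without WT replicate 3. Centring on the other 14 chromosomes changed these counts over the whole list to 28 higher and 4 lower of 117. After it 24.1% of all probe sets rose, a share near that of the list, and 20.1% fell. RPS9A read 6257, 8086 and 8671 in WT and 1523 and 1007 in sub2∆, a 6.07-fold fall (limma adjusted p = 0.00140). RPS22B read 8291 to 9767 in WT and 2340 and 2373 in sub2∆, a 3.86-fold fall (limma adjusted p = 0.000869). Both genes encode small-subunit proteins, have a near-identical paralog and remained lower after centring, as did RPL4B (1.77-fold lower).

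The RNA polymerase II elongation list held 10 genes that rose and 5 that fell of 22, and outside chromosomes II and X 9 and 5 of 21 (42.9% and 23.8%, against 11.4% and 34.3% of all genes there). POB3, a subunit of the histone chaperone FACT, rose 1.75-fold and CTK1, a kinase of the polymerase tail, 1.84-fold, while ELC1 read 578 to 776 in WT and 304 and 305 in sub2∆, a 2.24-fold fall. The count of higher genes ranged from 3 to 9 when any 1 array was left out, with 3 and 4 without sub2∆ replicate 1 and sub2∆ replicate 2 and 6 without WT replicate 3. Nuclear exosome and decay genes had 3 rises and 4 falls among 24, with a median of -0.02, 2 and 4 among 23 outside chromosomes II and X, and after centring 4 and 0. Cleavage and polyadenylation genes had 3 and 4 among 17. REF2 of this list read 895 to 1216 in WT and 2525 and 2078 in sub2∆, and SYC1 fell 2.23-fold. Over all genes 15.5% rose and 31.4% fell, against 12.5% and 16.7% of the decay list and 17.6% and 23.5% of the cleavage list, and without sub2∆ replicate 1 or sub2∆ replicate 2 none of the decay genes was called. Of 12 genes that remove R-loops or relax DNA TOP1 and TOP3 rose and RNH1 and RRM3 fell, and none of the list lies on chromosome II or X. These are 16.7% each way, against 15.5% and 31.4% of all genes. TOP1, the main topoisomerase I, read 1112 to 1485 in WT and 3299 and 3266 in sub2∆, a 2.42-fold rise (limma adjusted p = 0.00277). RNH1, an RNase H that cuts RNA in RNA-DNA hybrids, read 502 to 621 and then 298 and 213, with a log2 change of -1.10 (adjusted p = 0.00544 in the limma fit).

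The 15 strongest rises, taken among called genes whose sub2∆ arrays both lay above all WT values (25.2% of tested genes had such arrays, called or not), held 5 genes of chromosomes II and X. Away from these chromosomes the clearest were ARO10, BIO2, NDC80, KAR1 and NOP16. ARO10, the decarboxylase of aromatic amino acid breakdown, read 401 to 496 in WT and 5885 and 5947 in sub2∆, a 12.7-fold rise (limma adjusted p = 0.000218). It was the 1 rise in its list of amino acid breakdown genes, where 9 of 16 fell. These are 6.25% and 56.25%, against 15.5% and 31.4% of all genes. Outside chromosomes II and X 1 rose and 9 fell of 15 (6.67% and 60%, against 11.4% and 34.3% of all genes there). BIO2, biotin synthase, read 830, 444 and 377 in WT and 6096 and 6510 in sub2∆, an 11.8-fold rise (limma adjusted p = 0.00149). The list of biotin synthesis and uptake, BIO2 included, had 2 rises and 2 falls of 11 (18.2% each, against 15.5% and 31.4% of all genes). Outside chromosomes II and X 2 rose and 1 fell of 10 (20% and 10%, against 11.4% and 34.3% of all genes there). VHR1, a regulator of biotin-responsive genes, fell 5.60-fold.

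NDC80, a microtubule-binding kinetochore protein, read 281, 239 and 311 in WT and 2244 and 2383 in sub2∆, a 7.99-fold rise (limma adjusted p = 0.000606). KAR1, a spindle pole body protein, read 359 to 384 in WT and 2840 and 2710 in sub2∆, a 7.22-fold rise (limma adjusted p = 0.000218). NOP16, a ribosome assembly factor, read 1925 to 2056 in WT and 9221 and 8936 in sub2∆, a 4.54-fold rise. The groups of all 3 lay far apart. PIG1, a glycogen-targeting protein phosphatase subunit, rose 4.97-fold, RIM4, an RNA-binding protein of meiosis, 4.82-fold, and MTW1, a kinetochore protein, 4.74-fold.

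Of the 15, 3 lost their call when 1 array was left out. IZH4, a membrane protein linked to zinc homeostasis, read 2880, 324 and 253 in WT and 11396 and 11169 in sub2∆ (log2 change 4.14 ± 1.05, limma adjusted p = 0.0244), and its adjusted p was between 0.0604 and 0.114 without either sub2∆ array, WT replicate 2 or WT replicate 3. TIP1, a cell wall mannoprotein of chromosome II, read 8449, 2947 and 2314 in WT and 20595 and 21619 in sub2∆, and lost its call without either sub2∆ array (adjusted p = 0.0850 and 0.0951). YMR001C-A read 389, 71.4 and 236 in WT and 743 and 1165 in sub2∆, and lost its call without either sub2∆ array or WT replicate 3 (adjusted p = 0.0790 to 0.196).

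**Figure D4:**
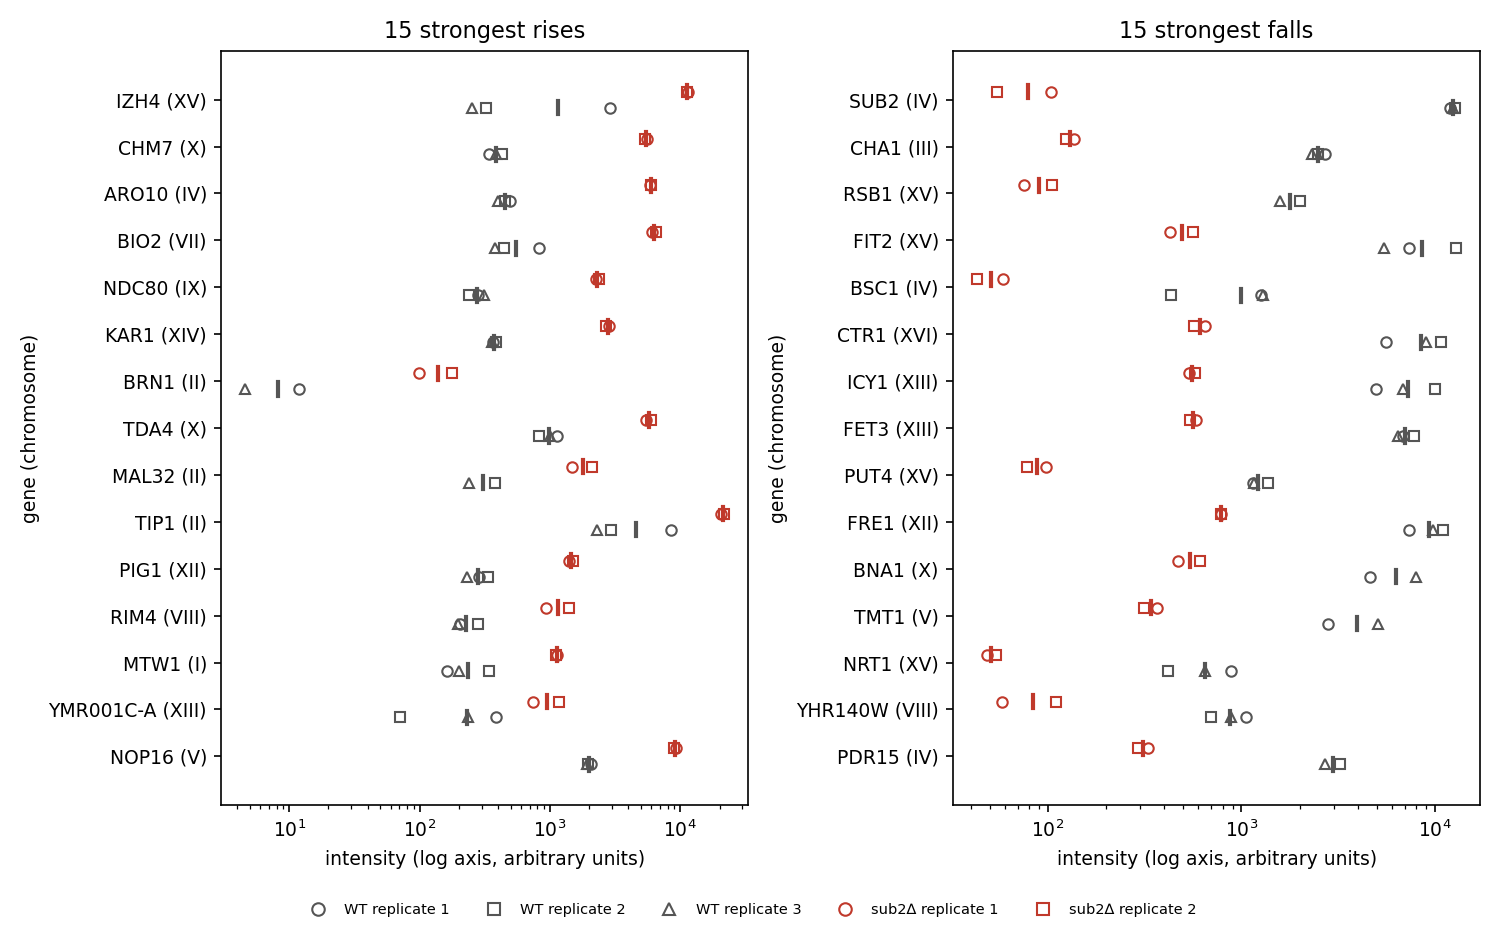
Intensity (log axis) on each WT array (grey) and sub2∆ array (red) of the 15 genes with the strongest rises and the 15 with the strongest falls, with the chromosome in brackets and short vertical lines at the strain means. In each row both sub2∆ points lie on one side of all WT points, as the choice of genes required, and the spread within a strain varies: WT reads 2880, 324 and 253 for IZH4 and 432 to 1296 for BSC1, and sub2∆ reads 99.1 and 178 for BRN1 and 104 and 54.6 for SUB2.

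The 15 strongest falls, chosen alike (in 45.8% of tested genes both sub2∆ arrays lay below all WT values), began with SUB2 itself. CHA1, the catabolic serine deaminase, read 2711, 2481 and 2319 in WT and 136 and 123 in sub2∆, a 17.3-fold fall (limma adjusted p = 0.000218). RSB1, a sphingoid base transporter or translocase, read 2004 and 1583 on the 2 filled WT arrays and 75.1 and 104 in sub2∆, a 17.2-fold fall (limma adjusted p = 0.00105). CTR1, the high-affinity copper transporter, read 5624 to 10759 in WT and 649 and 571 in sub2∆, a 13.1-fold fall (limma adjusted p = 0.00117). Of these 15 genes 1, BNA1, lies on chromosome II or X. PDR15, a multidrug transporter gene, fell 9.06-fold on 2 WT arrays, and BSC1, which read 432 to 1296 in WT and 58.9 and 43.2 in sub2∆, fell 13.7-fold.

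Iron genes formed the list with the second-lowest median of those of 7 or more tested genes. Of 29 tested genes of the iron regulon 22 fell and 0 rose in the limma fit (1 at an unadjusted p under 0.05), with a median of -1.36, and all 22 lie outside chromosomes II and X. This is 75.9% of the list, against 31.4% lower among all genes. FET3, the multicopper oxidase of high-affinity iron uptake, read 6877, 7758 and 6445 in WT and 583 and 544 in sub2∆, a 12.1-fold fall. FRE1, a plasma membrane reductase for iron and copper, read 7334 to 11017 in WT and 788 and 786 in sub2∆, an 11.5-fold fall. FIT2, a cell wall mannoprotein that holds siderophores, read 5444 to 12836 and then 430 and 559. In no case did the groups overlap. The count of lower iron genes stayed between 18 and 22 with any 1 array left out and was 21 after centring on the other 14 chromosomes, when 1 rose. Of 11 copper genes 6 fell and 2 rose (54.5% and 18.2%, against 31.4% and 15.5% of all genes). Outside chromosomes II and X 6 fell and 2 rose of 10 (60% and 20%, against 34.3% and 11.4% of all genes there). Only 3 fell without WT replicate 3, and fewer than 6 without either sub2∆ array. MAC1, the copper-sensing activator, was among the falls (log2 change -0.93). CUP1-1, a metallothionein gene in near-identical copies, read 17607 to 21320 in WT and 31954 and 31675 in sub2∆, and lost its call without either sub2∆ array.

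Genes of heme synthesis and respiration stood lower, with 58.3% and 51.2% of the tested genes called lower against 31.4% of all genes. Of 12 heme genes 7 fell and 1 rose, with a median of -0.67, among them COX15 (4.19-fold), a heme A synthase that read 3951 to 4088 in WT and 1118 and 798 in sub2∆, and HEM12 (2.32-fold). Of 43 tested subunits of respiratory complexes and of the ATP synthase 22 fell and 0 rose in the limma fit, also at an unadjusted p under 0.05, with a median of -0.58, and 21 of 37 fell outside chromosomes II and X. RIP1, the Rieske iron-sulfur protein, read 3887 to 4288 in WT and 1152 and 1054 in sub2∆, a 3.64-fold fall, and CYT1, cytochrome c1, fell 2.69-fold. After centring on the other 14 chromosomes 17 of these genes were lower and 1 higher. The falls numbered 15 and 11 in the respiratory list without sub2∆ replicate 1 and sub2∆ replicate 2, and 3 in the heme list in either case.

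Mitochondrial ribosomal protein genes fell more widely. Of 68 tested genes 54 fell and 2 rose, with a median of -0.72, against 31.4% lower among all genes. Outside chromosomes II and X 52 of 60 fell and 0 rose in the limma fit (1 at an unadjusted p under 0.05), with a median of -0.75. RSM28 read 2335, 2743 and 2626 in WT and 991 and 879 in sub2∆, a 2.71-fold fall, and MRPL38 read 3102 to 3735 and then 1339 and 1211, a 2.60-fold fall (limma adjusted p = 0.00125 and 0.00142). The groups lay apart for both. The count of lower genes was 37 after centring on the other 14 chromosomes, when 5 rose, and between 28 and 56 with any 1 array left out, with 33 without sub2∆ replicate 1 and 28 without sub2∆ replicate 2.

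Genes that make NAD or take up its precursors were lower as well. Of 15 tested genes 11 fell and 0 rose in the limma fit, also at an unadjusted p under 0.05, with a median of -1.17, the same without the 4 of chromosomes II and X, of which 2 fell. BNA1, an oxygenase of NAD synthesis from tryptophan that lies on chromosome X, read 4619 and 7956 on 2 WT arrays and 472 and 610 in sub2∆. NRT1, a nicotinamide riboside transporter, read 880, 416 and 647 in WT and 48.4 and 53.8 in sub2∆, a 9.48-fold fall (limma adjusted p = 0.00151). TNA1, the nicotinic acid permease, fell 4.09-fold and BNA5 4.53-fold. The 11 falls are 73.3% of the list, against 31.4% of all genes. The count was 11 after centring and 8 to 10 with any 1 array left out.

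In each of 6 amino acid pathways most tested genes fell. Of the tested genes 6 of 7 fell in arginine metabolism (median -1.55), 7 of 7 in lysine synthesis (-1.18), 9 of 10 in branched-chain synthesis (-1.01), 9 of 11 in aromatic synthesis (-0.94), 3 of 5 in histidine synthesis (-1.23) and 16 of 26 in methionine and sulfate assimilation (-0.86). Among all genes 31.4% fell. The branched-chain falls include LEU2 and the histidine falls include HIS3, both mutant alleles in both strains by label. HIS3 is also the marker that replaced SUB2. In these lists 1 gene rose, of the methionine list and on chromosome II or X. Outside chromosomes II and X 15 of 22 methionine, 8 of 9 aromatic, 6 of 6 lysine and 3 of 4 histidine genes fell, and the arginine and branched-chain lists have no gene on them. Several of these counts rested on single arrays. Without sub2∆ replicate 1 the falls numbered 3 in the arginine, lysine and aromatic lists alike and 11 in the methionine list, and without sub2∆ replicate 2 they numbered 2, 3, 3 and 10. Without WT replicate 1 or WT replicate 3 the lysine list had 3 falls and the aromatic list 5. In these fits genes empty on WT replicate 2, LYS4 and ARO3 among them, could not be tested, so the smaller counts are not lost calls alone. The branched-chain list kept 6 to 9 falls with any 1 array left out. MET6, the methionine synthase, read 6426, 10937 and 8854 in WT and 918 and 1001 in sub2∆, an 8.77-fold fall (limma adjusted p = 0.00112). ARG1 read 15991 to 21764 in WT and 5871 and 5678 in sub2∆, and ARO1, a multifunctional enzyme of aromatic synthesis, 10599 to 14190 and then 3506 and 3813. The WT arrays did not agree well for many of these genes, WT replicate 1 being the lowest of the 3 for MET6, ARG1 and ARO1.

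Permeases and genes under nitrogen catabolite repression had 22 falls and 2 rises among 32, with a median of -0.94, and 21 and 1 among 28 outside chromosomes II and X, where 34.3% of all genes fell. The count of falls was 15 to 20 with any 1 array left out. PUT4, the proline permease, read 1146, 1372 and 1159 in WT and 98.3 and 78.1 in sub2∆, an 11.9-fold fall (limma adjusted p = 0.000482). MEP1, an ammonium permease, read 2632 and 2656 on 2 WT arrays and 353 and 370 in sub2∆, a 7.04-fold fall, and AGP1, a broad amino acid permease, fell 3.27-fold. Among the 19 genes for cytosolic aminoacyl-tRNA synthetases 13 fell and 0 rose in the limma fit (1 at an unadjusted p under 0.05), with a median of -0.45, and 13 of 17 fell outside chromosomes II and X. Only 3 fell without sub2∆ replicate 1, 4 without sub2∆ replicate 2 and 7 without WT replicate 3, and after centring 6 fell and 2 rose. In purine and one-carbon synthesis 13 of 21 genes fell and 2 rose, led by ADE17, which read 3578 and 4415 on 2 WT arrays and 471 and 570 in sub2∆. Outside chromosomes II and X 13 of 20 fell and 1 rose. Over the list 8 fell without WT replicate 3, a fit in which ADE17, empty on WT replicate 2, could not be tested.

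Of the sterol genes most fell, though fewer were called with 1 array left out. Of 25 ergosterol genes 22 fell and 0 rose in the limma fit, also at an unadjusted p under 0.05, with a median of -0.98, and 22 of 24 fell outside chromosomes II and X. This is 88.0% of the list, against 31.4% of all genes. The count was 14 without sub2∆ replicate 1, 13 without sub2∆ replicate 2 and 16 after centring on the other 14 chromosomes. ERG26 read 6517, 8023 and 8444 in WT and 1203 and 1316 in sub2∆, a 5.99-fold fall (limma adjusted p = 0.000864). HMG1, a reductase that sets the pace of the pathway, read 8909 to 10778 and then 2730 and 2678. Among cell surface mannoproteins with internal repeats 14 of 28 fell and 4 rose, with a median of -0.53, but 3 of the 4 that rose lie on chromosomes II and X and without these chromosomes 14 of 23 fell with a median of -0.75. The count of falls was 8 without sub2∆ replicate 2. TIR1 fell 6.27-fold and TIR3 4.45-fold, whereas TIP1, of the same family and on chromosome II, read higher as given above. No gene of the 28 tested in the general stress list and none of the 16 in the glycogen and trehalose list rose in the limma fit, also at an unadjusted p under 0.05, and 9 and 5 fell. The falls, 32.1% and 31.3% of these lists, are near the 31.4% of all genes, as are the 9 of 27 and 5 of 14 outside chromosomes II and X to the 34.3% there. With any 1 array left out they numbered 3 to 12 and 1 to 8, the fewest without a sub2∆ array.

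**Figure D5:**
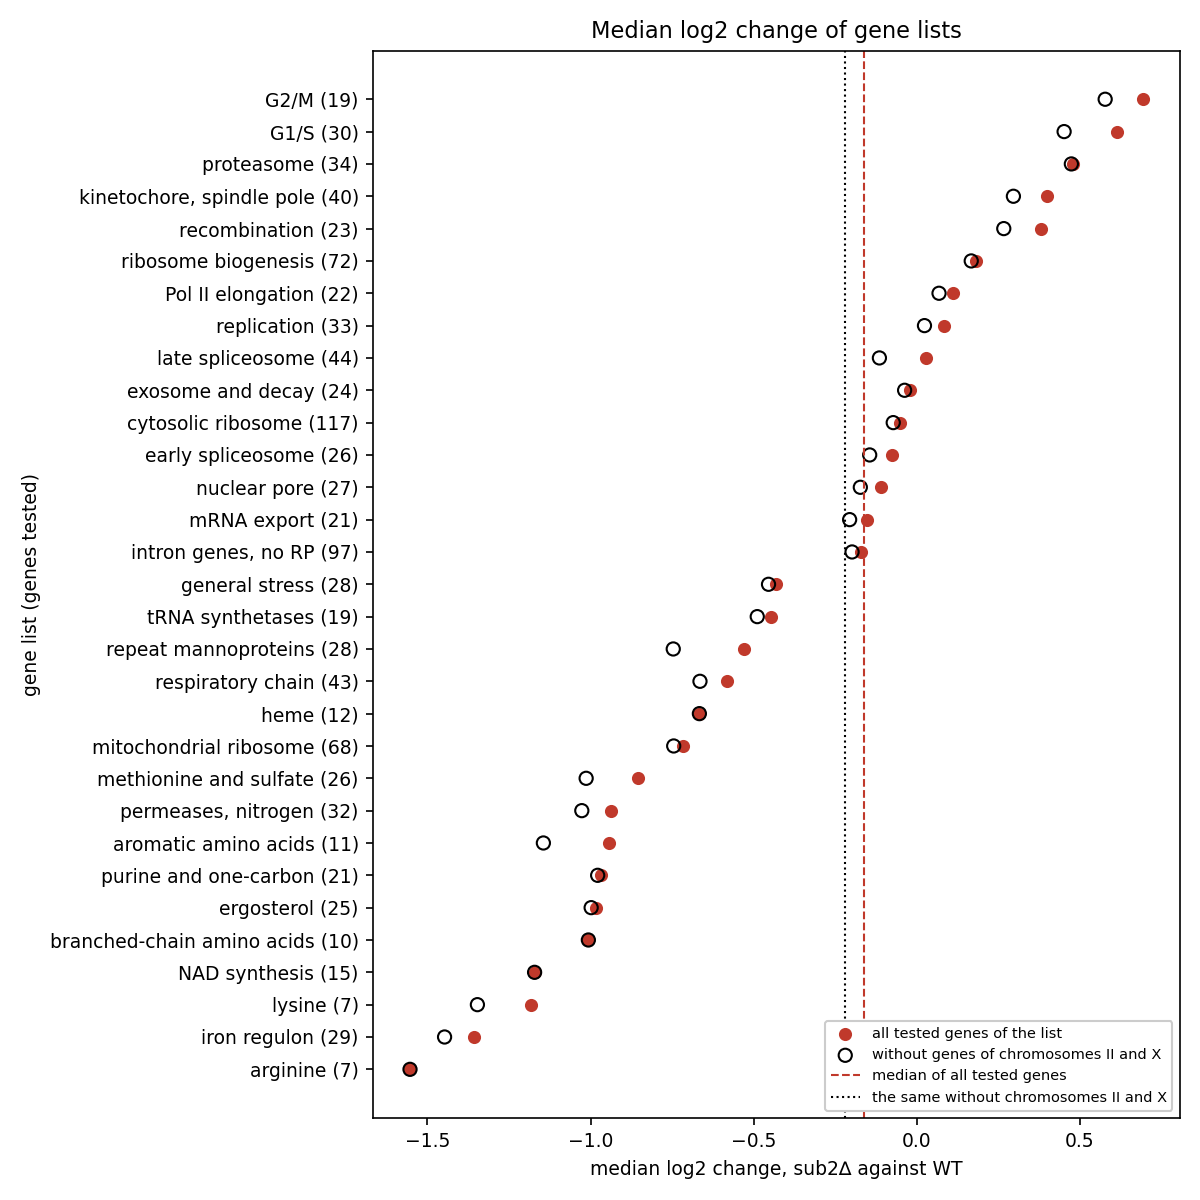
Median log2 change of sub2∆ against WT for gene lists (number of tested genes in brackets), with all tested genes (filled) and without genes of chromosomes II and X (open); vertical lines mark the medians of all tested genes, -0.16 (dashed) and -0.22 without those chromosomes (dotted). Arginine (-1.55) and iron (-1.36) lists lie lowest, G2/M (0.69) and G1/S (0.61) lists highest, and the medians of G1/S, kinetochore and recombination lists move down when chromosomes II and X are left out.

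Lists that stood higher were those of cell division, DNA repair and protein turnover, and chromosomes II and X held part of the count. In bulk cultures more cells in a phase of the cycle and more RNA per cell cannot be told apart. Of 40 kinetochore, spindle pole body and condensin genes 20 rose and 2 fell (median 0.40), and 16 and 2 of 35 outside these chromosomes (median 0.30), where 11.4% of all genes rose. Besides NDC80 and KAR1, KRE28, which encodes a kinetochore protein, read 188 to 223 in WT and 930 and 1057 in sub2∆, a 4.53-fold rise (limma adjusted p = 0.000864). BIR1, the yeast survivin, which lies on chromosome X, rose 2.42-fold. The count of higher genes was 9 and 10 without sub2∆ replicate 1 and sub2∆ replicate 2, 11 without WT replicate 3, and at most 21 with any 1 array left out.

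Of 30 G1/S genes 16 rose and 1 fell (median 0.61), and 10 and 1 of 24 outside chromosomes II and X (median 0.45). Over all genes 15.5% rose and 31.4% fell, and outside these chromosomes 11.4% and 34.3%. With 1 sub2∆ array left out, whichever it was, 10 of the 30 rose. The members of lowest adjusted p lay on these chromosomes: SWE1, the kinase that delays mitosis, read 596 to 637 in WT and 1860 and 1632 in sub2∆, and ASF1, a histone chaperone, 871 to 1004 and then 2509 and 2821. After centring on the other 14 chromosomes their log2 changes were 1.69 and 1.71, against 0.79 for chromosome X above the other 14. Both were picked by adjusted p. Of 19 G2/M and mitotic exit genes 12 rose and 1 fell (median 0.69), and 10 and 1 of 17 outside. SPO12, a regulator of mitotic exit, read 838 to 987 in WT and 2482 and 2502 in sub2∆, a 2.78-fold rise, and KIN3, a mitotic kinase, rose 2.73-fold. Of 33 replication genes 10 rose and 6 fell. Outside chromosomes II and X 5 rose and 6 fell of 26 (19.2% and 23.1%, against 11.4% and 34.3% of all genes there). Only 5 and 4 of the 33 rose without sub2∆ replicate 1 and sub2∆ replicate 2. MCM2, POL12 and POL30 (log2 changes 1.11, 1.08 and 1.07) are all genes of chromosome II.

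Homologous recombination genes, a pathway for which strains without TREX are known, had 10 rises and 0 falls among 23 in the limma fit, with 0 falls also at an unadjusted p under 0.05 (median 0.38), and 7 and 0 among 20 outside chromosomes II and X (median 0.27). The rises are 43.5% of the list, against 15.5% of all genes. With 1 sub2∆ array left out, whichever it was, 4 rose, and 6 without WT replicate 3. RDH54, a DNA translocase of the Rad54 family on chromosome II, read 2028, 2094 and 2209 in WT and 7798 and 7349 in sub2∆, a 3.57-fold rise (limma adjusted p = 0.000856). RFA3, a subunit of the single-strand DNA binding protein RPA on chromosome X, rose 2.61-fold, and PSY3, of chromosome XII, read 221 and 198 on 2 WT arrays and 446 and 461 in sub2∆. Of 21 checkpoint and ribonucleotide reductase genes 6 rose and 3 fell, and 4 and 2 of 16 outside, but 1 rose with 1 sub2∆ array left out, whichever it was. CHK1, a checkpoint kinase of chromosome II, rose 1.89-fold. RAD53, the central checkpoint kinase, read 374 to 407 in WT and 594 and 585 in sub2∆, and lost its call without either sub2∆ array (adjusted p = 0.0622 and 0.0627).

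Of 34 proteasome genes 22 rose and 1 fell, with a median of 0.48, and this list had 1 member on chromosomes II and X, so that 21 of 33 rose outside. The rises are 64.7% of the list, against 15.5% of all genes, and their count was 13 without sub2∆ replicate 1 and 14 without sub2∆ replicate 2. That member, UMP1, a proteasome assembly chaperone, read 1542, 1873 and 1679 in WT and 6167 and 5921 in sub2∆, a 3.55-fold rise. RPN11, the deubiquitinase of the lid, read 2253 to 2784 and then 5969 and 5726, a 2.34-fold rise, and RPN3 rose 2.07-fold. Heat shock chaperone genes were less one-sided, with 6 rises and 4 falls of 24 (25% and 16.7%, against 15.5% and 31.4% of all genes). Outside chromosomes II and X 4 rose and 4 fell of 20 (20% each, against 11.4% and 34.3% of all genes there). Fewer of the list rose when 1 sub2∆ array was left out, whichever it was. SSA3, an inducible Hsp70 gene on chromosome II, read 1187 to 1486 in WT and 6206 and 5184 in sub2∆, while HSP30 read 10125 to 20024 and then 2168 and 1972. Of 72 ribosome biogenesis genes 19 rose and 2 fell (26.4% and 2.78%, against 15.5% and 31.4% of all genes). Outside chromosomes II and X 15 rose and 2 fell of 67 (22.4% and 2.99%, against 11.4% and 34.3% of all genes there). After centring on the other 14 chromosomes 37 of the 72 rose and 0 fell, where 24.1% of all probe sets rose and 20.1% fell. Of the 72, 8 and 9 rose without sub2∆ replicate 1 and sub2∆ replicate 2. MAK16 read 1878 to 2448 in WT and 5241 and 4774 in sub2∆.

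Genes named in the labelled genotype differed between the strains. LEU2, a mutant allele in both strains by label, read 5043, 7901 and 5399 in WT and 745 and 639 in sub2∆, an 8.51-fold fall (limma adjusted p = 0.00106). HIS3, a mutant allele at its own locus in both strains by label and the marker that replaced SUB2, read 1358, 3109 and 2380 in WT and 321 and 374 in sub2∆. The genes on either side of the native HIS3 locus fell as well, DED1, a translation helicase gene, 3.15-fold and MRM1, a methyltransferase gene, 2.76-fold. ADE2 and CAN1 fell 2.08-fold and 1.99-fold, and URA3 read 5421 to 10101 in WT and 7717 and 6329 in sub2∆, with a log2 difference of -0.06 and overlapping groups. Where the probes lie relative to each mutation was not analysed here. Of 6 tested neighbours of SUB2, RPL13A had an adjusted p under 0.05 (log2 change -0.40), which rose to 0.251 after centring and to 0.100, 0.175 and 0.0766 without sub2∆ replicate 1, sub2∆ replicate 2 and WT replicate 3.

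Markers of mating type could be read only in part. Of 7 a-specific genes 3 were filled on each sub2∆ array and 6 or 7 on each WT array, with STE2, STE6, BAR1 and AGA2 empty on both sub2∆ arrays. The 4 alpha-specific genes were filled throughout, and their summed intensity was 1041 to 1241 in WT and 4097 and 2790 in sub2∆. Most of that sum was SAG1, the alpha-agglutinin gene on chromosome X, which read 749, 600 and 677 in WT and 3782 and 2434 in sub2∆, and the median of the 4 was 168 to 227 in WT and 142 and 149 in sub2∆. ASG7, an a-specific gene also on chromosome X, read 98.3 and 78.9 on 2 WT arrays and 337 and 334 in sub2∆. Of 5 meiotic genes, whose highest reading was 784 on any array, 3 and 2 were filled in sub2∆. HO, the mating type switching endonuclease gene, fell 3.09-fold and RME1, a repressor of meiosis, 2.48-fold.

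Gene length, which has been tied to THO function in budding yeast, was related to the change only weakly. In 5 equal classes by genomic span, from genes of 78 to 669 bases to genes of 2121 to 14733 bases, the median log2 change was -0.10, -0.17, -0.15, -0.18 and -0.20. The share that fell was 25.9% in the shortest class and 34.4% in the longest, and the share that rose was 16.9% and 14.1%. Outside chromosomes II and X the medians of the shortest and longest classes were -0.17 and -0.26. With those genes split by intensity into 3 classes, 19.4% of the shortest and 39.9% of the longest fell in the bright class, while the shares were 29.2% and 34.9% in the dim class and 38.4% and 36.6% in the middle class. These are descriptions across genes, which are not independent replicates.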

How the data were processed

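The values were those of the authors' deposited table, 1 linear intensity per probe set and array. The software, its summarisation and scaling steps, and why cells are empty: none is given in the sources used here. Scanner files were not used here, and precision is limited by the number of arrays. Symbols came from the platform annotation, updated for 12 probe sets through the R64 gene table, which also gave chromosomes and gene order; no coordinates are printed because the array's build is not stated. From the intensities, log2(intensity + 16) was fitted with limma 3.58.1 in R 4.3.3 on the 5 arrays, an empty cell leaving out its own array, so fold changes are those of (intensity + 16). The fit was tested on simulated data. For 233 tested probe sets 2 WT values were used. A fit without a WT array tested only probe sets with values on both remaining WT arrays. Counts from such fits can therefore be smaller because genes could not be tested. Of genes with over 1 probe set (47), 7 had probe sets that differed in call. Of the named probe sets 128 can bind several genes. Errors of log2 changes are standard errors.

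Genes were named by rule: the 15 highest and 15 lowest changes among called genes with groups apart, up to 4 members of lowest adjusted p per list, TREX genes, labelled markers, neighbours of SUB2, and the 2 largest changes each way on chromosomes II and X. Genes with all values empty in sub2∆ were named after their values were seen. The comparison, members and 60 lists were chosen with earlier results of these data known. Samples with the same number did not deviate together (correlation -0.006 and 0.049), so the numbers were not taken as pairs. Alternatives were another offset, scaling, filter, spread, array weights, a replicate block and leaving out each array. Centring on the other 14 chromosomes and leaving out chromosomes II and X were added after seeing the data. Planned promoter motifs were not run, since no sequence was used here.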

Additional observations from a re-analysis of the deposited data

How the results depend on the processing

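The number of called probe sets was 2254, with 742 higher and 1512 lower. With the replicate block it was 1331 (428 higher, 903 lower); the replicate numbers do not pair the samples, and the block left 13 of 22 falls in the ergosterol list, 4 of 13 in the tRNA synthetase list, 13 of 22 rises in the proteasome list and 6 of 10 in the recombination list. Leaving out 1 array gave 1024 to 2601 calls (334 to 896 higher, 651 to 1705 lower), the lowest where 1 sub2∆ array remained, which is then assumed to vary like WT. Centring on the other 14 chromosomes gave 1156 higher and 965 lower, and leaving out genes of chromosomes II and X 492 higher and 1460 lower. The other 9 settings stayed within 1.5 times, and split the calls into 847 higher and 1144 lower after quantile normalization and 959 and 1141 after medians were subtracted.

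Chromosome II lay 0.66 above the other 14 in median log2 change, with 0.67 at an offset of 1, 0.62 at an offset of 64, 0.67 after quantile normalization, 0.67 with the block and 0.65 to 0.67 without single arrays. Chromosome X lay 0.79 above, with 0.72 at an offset of 64 and 0.76 to 0.81 without single arrays. Of 235 named called genes 178 kept their call in every fit without 1 array that could test them, and 57 lost it in at least 1 such fit. Of the 235, 221 could be tested without WT replicate 1, 227 without WT replicate 2 and 213 without WT replicate 3. Under other offsets, scalings, spreads or weights 219 kept their call and 16 lost it. In all these fits 0 reversed.

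Only genes with no call changed sign. HPR1 went from -0.03 to 0.14 after quantile normalization, 0.11 after medians were subtracted, 0.037 with the block, 0.19 after centring on the other 14 chromosomes and -0.10 to 0.037 without single arrays. RPS16B went to 0.042 after medians were subtracted and 0.12 after centring. URA3 went to 0.020 after quantile normalization, 0.076 after medians were subtracted, 0.16 after centring and -0.28 to 0.17 without single arrays. THP2 ranged from -0.027 to 0.057 and YDL085C-A from -0.036 to 0.23 without single arrays. The cause of these changes was not tested. Signal over background is not known here, and 2 and 3 arrays limit what can be called. No promoter motif was searched.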
